A study of Gallus gallus with 4 samples.

Results

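The 126 genes described here were transcribed at a low level in control cells of the chicken neural tube and were at least 2 times as abundant in cells expressing MEK1ca. They were selected on the measured counts themselves, out of 17108 genes listed. Levels are given in CPM, counts scaled to a common library total of 1000000. A gene was kept when the lower of its pCIG values was at least 1 and under 10 CPM, and when the lower of its MEK1ca values was at least 2 times the higher of its pCIG values. Of 2635 genes in that pCIG window, 131 met the second condition. From these, 1 gene on chromosome 16 and 4 genes spanning 400 kb or more were set aside, which left 126 of 2598 genes, or 4.85%. In the same 2598 genes, 32 were at least 2 times lower in MEK1ca by the mirrored condition. Among all 10838 genes with a lower pCIG value of at least 1 CPM, 1.86% were doubled in this way. The fold change of the doubled genes is therefore what defines them and is given as a description, without a test.

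The cells were GFP-expressing cells sorted from pooled chicken embryos of no stated strain. Plasmids were introduced by electroporation on both sides of the trunk neural tube at stage HH11, and tissue was taken 18 h later. The pCIG group received the empty GFP vector pCIG at 2 µg/µl, and the MEK1ca group received pCIG-MEK1ca at 1 µg/µl together with pCIG at 1 µg/µl, so that the cells of both groups carried pCIG and GFP. Each group comprised 2 libraries, named as replicates 1 and 2, made from independent RNA samples of embryos pooled by condition, and cDNA was amplified before library building. Whether the pools were transfected on separate days is not stated. Transfection was transient and covered part of the neural tube, and the control libraries are labeled as re-analyzed. The MEK1ca libraries do not carry that label. Any difference in handling that goes with it cannot be told apart from MEK1ca.

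MEK1 is the kinase that phosphorylates and activates ERK, the last kinase of the cascade that carries FGF signals into the nucleus. MEK1ca is a form of it that is active without an upstream signal. In the caudal neural tube, FGF and ERK activity is known to keep progenitors immature, and active ERK is known to induce its own inhibitors, such as dual-specificity phosphatases and Sprouty proteins. The count table identifies genes by Ensembl identifiers alone, and 0 of 17108 matched the name table at hand, which belongs to a later assembly. The doubled genes are therefore given by their position in galGal4 and by their rank, counted from 1 at the largest ratio of the lower MEK1ca to the higher pCIG value. No role is assigned to any of them. For the same reason the level of the gene encoding MEK1, the cell type markers and the pathway lists could not be read.

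Library totals were 63637195 to 79064166 counts, so that a value of 1 CPM stood on about the lowest counts met among the doubled genes, 81 in pCIG replicate 2 and 82 in pCIG replicate 1. In MEK1ca their lowest counts were 243 in replicate 1 and 220 in replicate 2. In MEK1ca replicate 2, 114 of the 126 counts were even numbers, against 52 and 60 in pCIG replicates 1 and 2 and 56 in MEK1ca replicate 1. Counts of the doubled genes in that library thus came mostly in steps of 2, which CPM cancels if all its counts and its total are affected alike. This was read from the doubled genes only, and not over all genes of the library. Because these are bulk samples, more RNA per cell and more cells of an expressing type cannot be told apart.

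In the pCIG libraries the doubled genes had a median of 3.59 CPM in replicate 1 (quartiles 2.39 and 5.94) and 3.22 CPM in replicate 2 (quartiles 2.01 and 5.63). In the MEK1ca libraries the median was 14.01 CPM in replicate 1 (quartiles 9.01 and 24.7) and 13.6 CPM in replicate 2 (quartiles 7.99 and 24.1). Ranked among all listed genes, the median doubled gene stood at percentile 43.3 in both pCIG libraries and at 54.9 and 54.1 in the MEK1ca libraries. The median doubled gene thus moved from below to just above the middle of the 17108 listed genes, and few became abundant. That list includes genes with few or no counts, and 13024 of its genes had enough counts to be tested. The percentiles therefore do not give the place among expressed genes. Together they took 0.0549 and 0.0520% of all counts in pCIG and 0.280 and 0.260% in MEK1ca. The mean of the MEK1ca libraries reached 10 CPM for 86 genes, 20 CPM for 46, 50 CPM for 8 and 100 CPM for 3, while 31 genes stayed under 10 CPM in both MEK1ca libraries. The 10 genes highest in MEK1ca held 32.6 and 31.6% of the summed MEK1ca level, and 8.51 and 7.70% of the summed pCIG level.

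**Figure D1:**
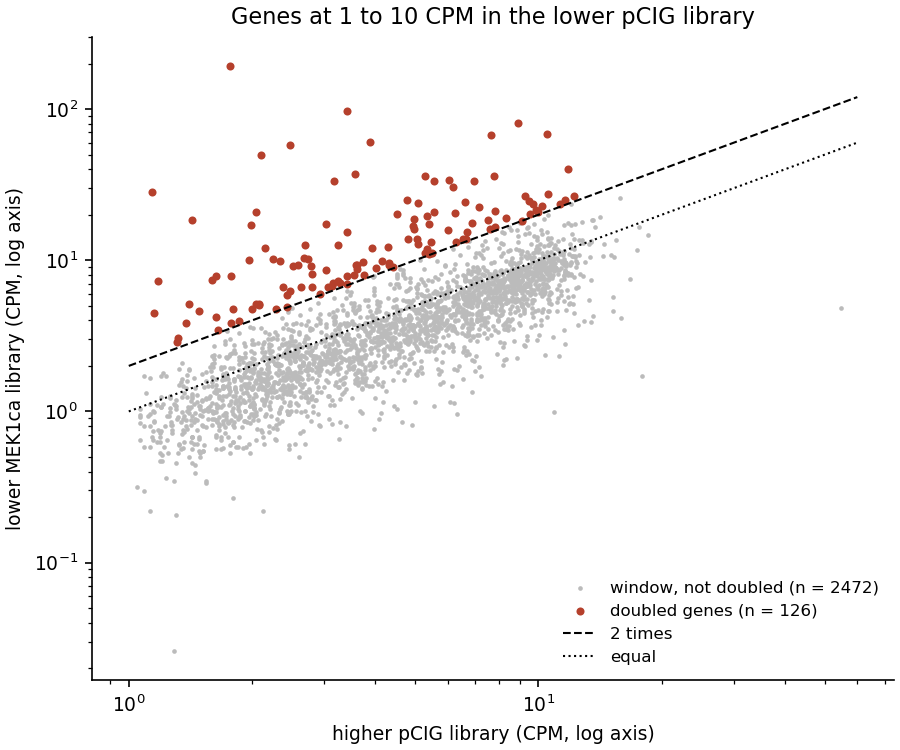
Level of 2598 genes in the pCIG window, as the lower MEK1ca value against the higher pCIG value of each gene (CPM, both axes logarithmic). The 126 doubled genes lie on or above the dashed line at 2 times and the 2472 others below it, and most doubled genes lie close to the line.

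The ratio of the lower MEK1ca to the higher pCIG value ran from 2.01 to 109, with a median of 2.67 and quartiles of 2.22 and 4.49. It was under 2.5 for 50 genes, from 2.5 to under 3 for 22, from 3 to under 5 for 32, from 5 to under 10 for 12, and 10 or more for 10. Within the window, 35 of 705 genes at 1 to under 2 CPM were doubled (4.96%), as were 55 of 950 at 2 to under 5 CPM (5.79%) and 36 of 943 at 5 to under 10 CPM (3.82%). The median ratio of the doubled genes was 3.69, 2.84 and 2.43 in these classes. Ratios of 5 or more were found for 10, 7 and 5 genes. Large ratios therefore occurred at every control level of the window.

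The widest gap was found for ENSGALG00000016783, a plus-strand gene of 13 exons on chromosome 1 at 133163682 to 133185156. It was measured at 1.77 and 1.38 CPM in pCIG and at 247 and 193 CPM in MEK1ca. Both MEK1ca libraries thus lay more than 100 times above both pCIG libraries, which is a log2 fold change of 7.15 (SE 0.20). Next came ENSGALG00000013624, a plus-strand gene of 22 exons on chromosome 2 at 90153586 to 90209672. Its values were 3.42 and 3.24 CPM in pCIG and 97.3 and 126 CPM in MEK1ca, with a log2 fold change of 5.09 and an SE of 0.14. Rank 3, a plus-strand gene of 5 exons on chromosome 8 at 5564250 to 5580305, went from 1.12 and 1.14 CPM in pCIG, near the lower edge of the window, to 31.9 and 28.4 CPM in MEK1ca. The replicates of this gene lay close together in both groups.

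Rank 4 had 2 exons on the plus strand of chromosome 9 at 14744529 to 14748605, and was measured at 2.10 and 1.69 CPM in pCIG and 60.1 and 49.7 CPM in MEK1ca. The next listed gene, on the minus strand at 14750404 to 14758732, was at 3254 and 3286 CPM in pCIG and 3512 and 3636 CPM in MEK1ca, so that a very abundant transcript that was not called different in the edgeR fit ends near this gene. Rank 5, a short minus-strand gene of 4 exons and 621 exonic bases on chromosome 6 at 31560638 to 31561609, was at 2.48 and 2.06 CPM in pCIG and 87.5 and 58.0 CPM in MEK1ca. Its MEK1ca libraries differed more from each other than those of the genes before it, with an SE of 0.26 on a log2 fold change of 5.03. Rank 6, a minus-strand gene of 9 exons on chromosome 3 at 67757131 to 67863760, was at 3.88 and 1.99 CPM in pCIG and 60.9 and 70.3 CPM in MEK1ca. Here the pCIG libraries were the ones that differed.

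Among ranks 7 to 10, the minus-strand gene of chromosome 3 at 30420675 to 30444025 was at 1.43 and 1.25 CPM in pCIG and 25.5 and 18.6 CPM in MEK1ca. The minus-strand gene of chromosome 6 at 16142744 to 16223667 was at 2.49 and 3.17 CPM in pCIG and 33.5 and 55.2 CPM in MEK1ca. The minus-strand gene of chromosome 13 at 1309826 to 1324899, with 37 exons, was at 3.56 and 3.38 CPM in pCIG and 37.2 and 54.0 CPM in MEK1ca. In the last 2 of these MEK1ca replicate 2 was the higher, opposite to the others. An exon of the chromosome 13 gene overlaps a gene on the other strand over 107 bases, which is 2.31% of its exons, and that gene had at most 0.267 CPM in any library. Rank 10 is the gene to the right of rank 1 on chromosome 1, at 133190561 to 133209036, with 2.04 and 1.30 CPM in pCIG and 24.0 and 20.8 CPM in MEK1ca.

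Ranks 11 to 20 were 5.59 to 9.08 times higher by the same ratio. The highest in MEK1ca was the plus-strand gene of chromosome 4 at 12065414 to 12074015, at 8.90 and 7.97 CPM in pCIG and 144 and 80.8 CPM in MEK1ca. It was followed by the 42-exon gene of chromosome 1 at 86879998 to 86923778, at 7.66 and 7.37 CPM in pCIG and 76.9 and 67.3 CPM in MEK1ca, whose SE of 0.117 was the lowest of all doubled genes. Chromosome 4 also held the gene at 69141181 to 69164821, at 10.5 and 7.82 CPM in pCIG and 71.0 and 68.9 CPM in MEK1ca, and the gene at 55856553 to 55899875, at 4.69 and 5.27 CPM in pCIG and 50.1 and 36.1 CPM in MEK1ca. In each of these genes both MEK1ca values were above both pCIG values, as the selection requires. An intronless gene on chromosome 6 at 25774429 to 25775712 was at 1.87 and 1.99 CPM in pCIG and 25.1 and 17.1 CPM in MEK1ca. The gene of chromosome 1 at 186813786 to 186845023 was among the lowest in pCIG, at 1.18 and 1.02 CPM, and reached 12.4 and 7.32 CPM. In both of these MEK1ca replicate 1 was the higher. The most even values belonged to the gene of chromosome 1 at 175084526 to 175185951, at 3.03 and 2.93 CPM in pCIG and 17.4 CPM in each MEK1ca library. The remaining 3, on chromosomes 2, 8 and 1, had log2 fold changes of 2.67, 2.62 and 2.71 with SEs of 0.13, 0.14 and 0.21.

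**Figure D2:**
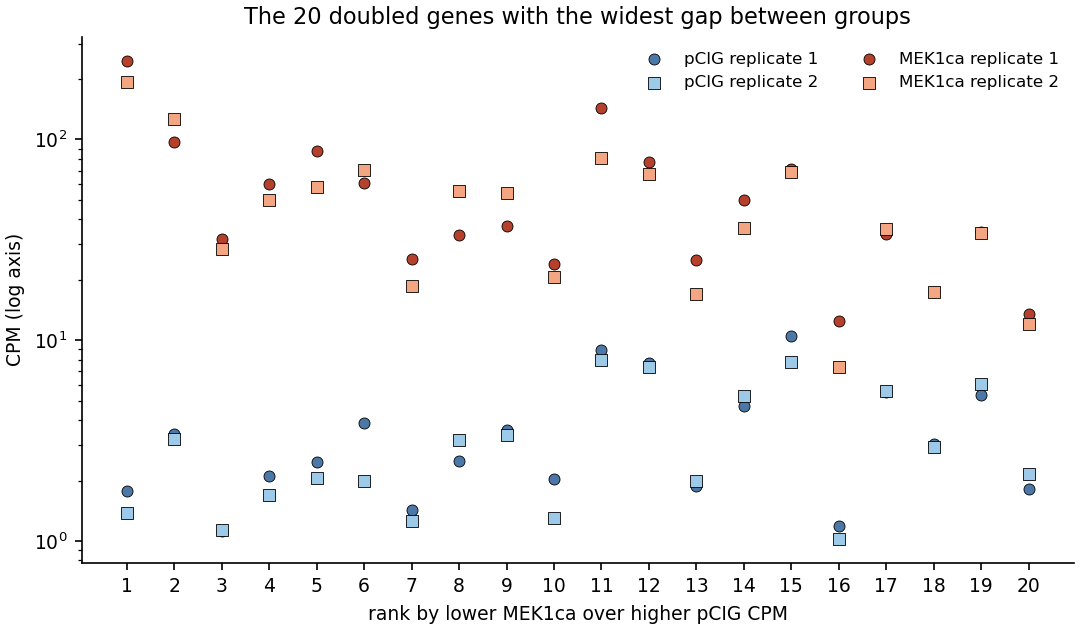
Level of the 20 doubled genes with the largest ratio of lower MEK1ca to higher pCIG value, in each of the 4 libraries (CPM, logarithmic axis). Circles are replicate 1 and squares replicate 2, blue for pCIG and red for MEK1ca. Rank 1 reaches 247 and 193 CPM in MEK1ca, and the distance between replicates varies from gene to gene.

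Levels can be compared between genes only per kilobase of exon. On that scale the doubled genes had a median of 1.22 CPM per kb in pCIG and 4.88 CPM per kb in MEK1ca. The highest level per kb in MEK1ca was that of the short chromosome 6 gene of rank 5, at 117 CPM per kb, ahead of rank 11 on chromosome 4 at 77.8, rank 1 at 56.9 and rank 2 at 34.4. Next was a gene of 967 exonic bases on chromosome 7 at 22733555 to 22750389, rank 100, at 33.3 CPM per kb. It was measured at 9.39 and 12.2 CPM in pCIG and at 38.0 and 26.4 CPM in MEK1ca. At the other end was rank 22, on the plus strand of chromosome 7 at 14695977 to 14885623, named here after its values were seen. Its 269 exons sum to 92850 bases, the greatest exonic length of all 13024 genes tested. It was measured at 1.96 and 1.20 CPM in pCIG and at 9.98 and 17.2 CPM in MEK1ca, which is 0.146 CPM per kb in MEK1ca and the lowest level per kb of the doubled genes. Its mean in MEK1ca was 13.6 CPM. Rank 20, with 602 exonic bases, had a similar mean of 12.8 CPM in MEK1ca but 21.2 CPM per kb. Similar CPM values thus stood for very different levels per kb.

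Counts over all genes were also fitted with edgeR's quasi-likelihood test, in which 1065 of 13024 genes were called higher in MEK1ca at a Benjamini-Hochberg adjusted p under 0.05, or 8.18%. Of the doubled genes, 126 passed the filter on low counts, which the window ensures, and 125 were called. Since the same counts selected them, nothing is read from that number. Their log2 fold changes ran from 1.11 to 7.15 with a median of 1.83, beside -0.0049 over all genes tested, and their SEs from 0.117 to 0.561. Over all 2598 eligible genes of the window, doubled genes included, 238 were called higher and 104 lower, and 44.8% had a positive log2 fold change. Once the doubled genes are removed, which takes away high values by construction, 113 called higher and 104 called lower remain. The doubled gene that was not called, of rank 50, lies on the plus strand of chromosome 4 at 11883098 to 12001014. It was at 4.97 and 2.38 CPM in pCIG and 31.2 and 16.2 CPM in MEK1ca, a log2 fold change of 2.72 with the largest SE of the doubled genes.

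The same rule was also applied to 3 libraries at a time, and the level read in the library left out. Without MEK1ca replicate 2 the rule chose 173 genes, and in MEK1ca replicate 2 all 173 were above the higher pCIG value and 126 were at least 2 times above it (72.8%). Over all 2598 window genes, 34.4% were above and 6.27% at least 2 times above. The median ratio was 2.87 in the choosing libraries and 2.5 in the library left out. Without MEK1ca replicate 1 it chose 163 genes, of which 162 were above in replicate 1 and 126 doubled (77.3%). Of the window genes, 32.8% were above and 6.66% doubled. The median ratio was 2.78 in the choosing libraries and 2.79 in the library left out. With pCIG replicate 1 left out, 187 genes were chosen. The lower MEK1ca value was above pCIG replicate 1 in 182 and at least 2 times above it in 128 (68.4%). Of the 2639 genes then in the window, 30.3% were above and 5.99% at least 2 times above. The median ratio went from 2.69 to 2.39. With pCIG replicate 2 left out, the numbers were 156, 154 and 133 (85.3%). Of the 2689 genes then in the window, 39.4% were above and 7.59% at least 2 times above. Here the median ratio went from 2.73 to 2.95. These ratios still contain values that made the choice, namely the higher pCIG value where a MEK1ca library was left out and the lower MEK1ca value where a pCIG library was left out. The 126 genes still doubled in either MEK1ca library are the doubled genes themselves. The shares are therefore a description of the extra library and not independent of the rule.

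The median ratio of the higher to the lower replicate was 1.15 in pCIG and 1.22 in MEK1ca for doubled genes, and 1.19 in both groups for genes that were not doubled. A ratio over 1.5 was found for 11 doubled genes in pCIG (8.73%, against 13.7% of the genes that were not doubled) and for 26 in MEK1ca (20.6%, against 15.8%). Wide replicate gaps were thus less frequent than among the others in pCIG and more frequent in MEK1ca, which was not tested. The rule takes the higher pCIG and the lower MEK1ca value, so that a wide gap in either group makes a gene harder to select. These shares are therefore not independent of the selection. In MEK1ca, replicate 1 was above replicate 2 for 77 of 126 doubled genes (61.1%), but only for 40.9% of the 2472 others. In pCIG it was above for 85 doubled genes (67.5%) and for 60.3% of the others. The level of the doubled genes was thus more often higher in MEK1ca replicate 1 than that of their peers. Their summed level showed the same order, at 2804 CPM in MEK1ca replicate 1 and 2604 CPM in replicate 2, against 549 and 520 CPM in pCIG.

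**Figure D3:**
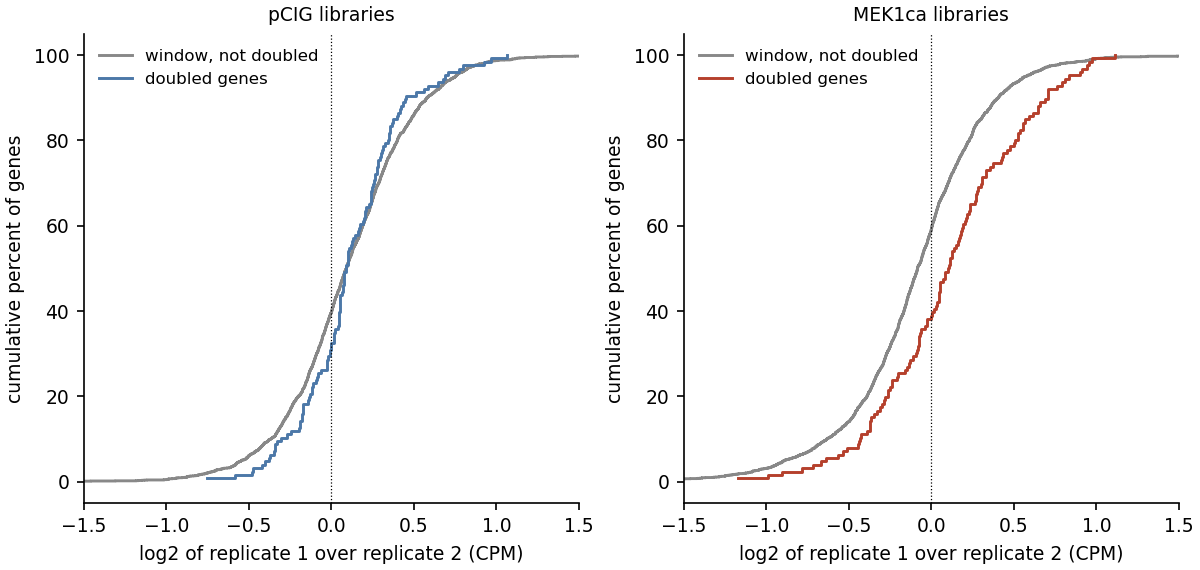
Cumulative distribution of the log2 ratio of replicate 1 to replicate 2 within each group, for doubled genes (colored) and for window genes that were not doubled (grey, genes with a count in both libraries). In MEK1ca the curve of the doubled genes lies to the right, with replicate 1 above replicate 2 in 61.1% of them against 40.9%.

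The doubled genes were longer than other genes of the same control window in CPM, a property the rule did not use apart from its limit on span. The window is not scaled by length, so that the genes compared were alike in CPM and not in level per kb. Their exons summed to a median of 3216 bases (quartiles 1642 and 4774), against 1841 bases (quartiles 1116 and 3070) for window genes that were not doubled and 2206 bases for all genes tested. The difference was present in each class of control level: the medians were 3186 against 1720 bases at 1 to under 2 CPM, 3246 against 1807 at 2 to under 5 CPM, and 3380 against 1975 at 5 to under 10 CPM. It was also present on chromosomes 1 to 6 (3302 against 1980 bases) and on the others (2826 against 1762). The number of exons differed less, with medians of 9 and 8. Gene span had a median of 22.7 kb, against 10.8 kb for the others and 13.5 kb for all genes tested. The median span was 33.1 against 15.6 kb on chromosomes 1 to 6. On the other chromosomes the gap was smaller, at 12.6 against 8.73 kb. Spans of 100 kb or more belonged to 22 doubled genes (17.5%) and to 9.14% of the others. Genes with 1 exon numbered 5 (3.97%, against 8.58%). For ratios under 2.5, of 2.5 to under 5, and of 5 or more, the exonic medians were 3092, 3048 and 3933 bases and the median spans 16.3, 30.9 and 23.5 kb, with no steady order in either. These are medians over genes of 1 annotation, in which exons may be missing, and they were not tested.

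**Figure D4:**
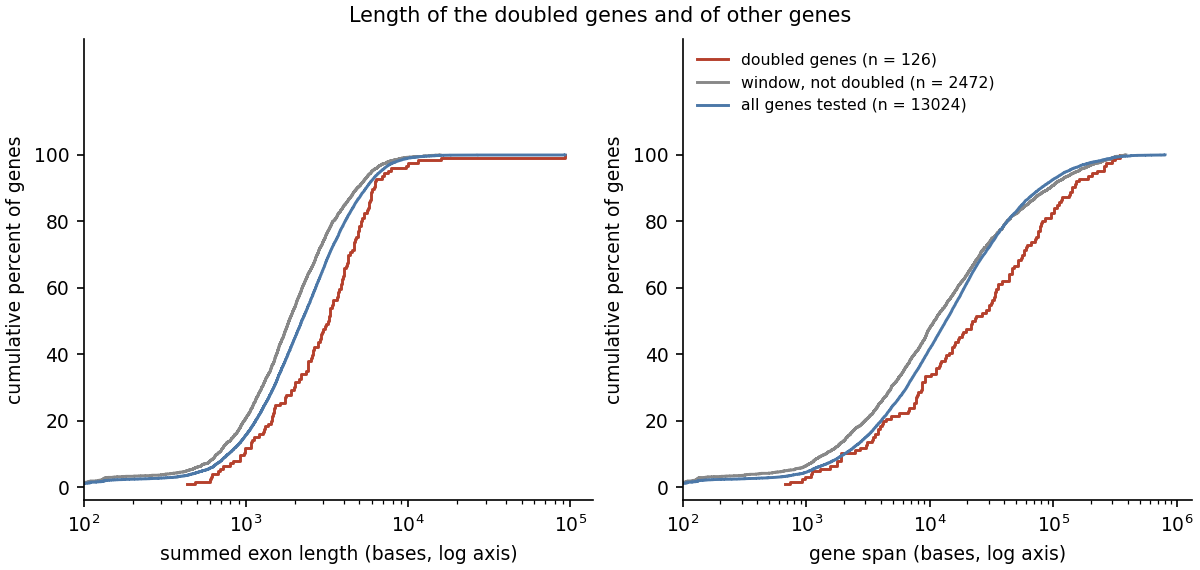
Cumulative distribution of summed exon length (left) and gene span (right), both in bases on a logarithmic axis, for the 126 doubled genes, the 2472 window genes that were not doubled and the 13024 genes tested. Over most of their range the curves of the doubled genes lie to the right of both others, with a median exon length of 3216 bases against 1841 and 2206.

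The strands were evenly used, with 62 doubled genes on the plus and 64 on the minus strand. Exons of 12 overlapped an exon of a gene on the opposite strand (9.52%, against 6.03% of the genes that were not doubled), and of 1 an exon of a gene on the same strand. Since the sources used here do not say whether reads were counted by strand, reads from these shared bases cannot be assigned, and 113 genes had no such overlap. The partner was abundant for ranks 23, 46, 94 and 125, which were looked at after their values were seen. Rank 46 lies on the plus strand of chromosome 2 at 3872283 to 3876425, and its exons lie to 94.8% within those of an opposite-strand gene at 345 and 330 CPM in pCIG and 405 and 362 CPM in MEK1ca. Rank 46 itself was at 4.93 and 4.78 CPM in pCIG and 27.7 and 17.0 CPM in MEK1ca, and it is uncertain which strand these reads came from. The exons of rank 125 on chromosome 27 were shared to 25.5% with a gene at 136 and 149 CPM in pCIG and 129.7 and 130.0 CPM in MEK1ca, and those of rank 23 on chromosome 5 to 8.87% with a gene at 29.4 and 33.2 CPM in pCIG and 33.8 and 36.1 CPM in MEK1ca. Rank 94 on chromosome 3 shared 98 bases, or 4.5% of its exons, with a gene at 306 and 289.7 CPM in pCIG and 270.3 and 269.8 CPM in MEK1ca. Of these 4 partners, that of rank 46 was slightly above its pCIG values in both MEK1ca libraries, as was that of rank 23, and the other two were not.

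Doubled genes lay on 24 chromosomes. Chromosome 1 held 18, chromosome 2 held 15, chromosome 3 held 14 and chromosome 4 held 12, in each case 5.20 to 6.74% of the eligible genes there. Chromosome 6 held 10 of 97, or 10.3%, the largest share of any chromosome. Chromosome 10 held 0 of 78. Chromosomes 1 to 6 together carried 61.9% of the doubled genes and 47.6% of the eligible ones. The 8 doubled genes of the Z chromosome had ratios of 2.11 to 2.84, and none stood among the leading ranks. Summed counts of the W chromosome, which in birds is carried by females, were 86.2 and 106 CPM in pCIG and 123 and 143 CPM in MEK1ca. Both MEK1ca values were the higher, but the replicates of each group also differed, and a group difference was not tested. The part of embryo sex in the values of the Z genes was not tested.

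The genes next to a doubled gene were also often higher in MEK1ca. Of 252 listed neighbors, 203 could be tested in the edgeR fit, and 51 of these were called higher (25.1%) and 4 lower (1.97%). Next to window genes that were not doubled, 4116 neighbors were tested, of which 7.70% were called higher and 6.46% lower. The median log2 fold change of the neighbors was 0.16 for doubled genes and -0.02 for the others. In all, 43 doubled genes (34.1%) had at least 1 neighbor called higher, against 12.2% of the others and 12.8% of all genes tested. For 8 of the 43 a higher neighbor was itself a doubled gene, and so selected for being higher. For 29 of the 43 a higher neighbor lay on the same strand, and for 14 it lay on the opposite strand only. Among the 302 window genes that were not doubled and had a higher neighbor, these numbers were 156 and 146. A higher neighbor on the opposite strand and at least 10 kb away was found for 8 doubled genes (6.35%, against 3.48%). Without pCIG replicate 1 the number with a higher neighbor was 27 (21.4%, against 5.58%), and without pCIG replicate 2 it was 24 (19.1%, against 5.02%). The neighbors were read from the same 4 libraries, so this is a description and not a test.

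Doubled genes were direct neighbors of each other in 4 cases, which involved 8 genes. Besides ranks 1 and 10 on chromosome 1, these were ranks 28 and 25 on the same chromosome, on opposite strands and 82.0 kb apart. The left one, at 187935346 to 187939781, was at 7.77 and 7.44 CPM in pCIG and 35.9 and 38.3 CPM in MEK1ca. The right one, an intronless gene at 188021745 to 188022863, was at 6.84 and 6.96 CPM in pCIG and 36.6 and 33.5 CPM in MEK1ca. The values of these neighbors were nearly the same in every library, although 1 gene has 3757 and the other 1119 exonic bases. On chromosome 3, ranks 40 and 90 lay on the plus strand. The first, at 25951104 to 25982708, was at 2.74 and 1.61 CPM in pCIG and 10.97 and 10.2 CPM in MEK1ca, and the second, at 26075656 to 26091343, was at 7.88 and 8.34 CPM in pCIG and 19.1 and 21.2 CPM in MEK1ca. On chromosome 7, ranks 65 and 86 face each other across 1.97 kb. The left one, at 20637422 to 20676092, was at 1.64 and 1.80 CPM in pCIG and 6.36 and 4.74 CPM in MEK1ca. The right one, at 20678066 to 20774184, was at 2.81 and 2.26 CPM in pCIG and 9.63 and 6.65 CPM in MEK1ca. Both of these had 26 exons and were higher in MEK1ca replicate 1. A doubled gene was also a neighbor called higher for 30 of the 2472 window genes that were not doubled. Another doubled gene lay within 100 kb of 12 doubled genes (9.52%), against 4.13% of the others with a doubled gene that near. At a distance several times larger the order was the reverse, at 12.7% against 15.8%. The excess was thus limited to the shorter distance, and it was not tested.

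The neighbors of rank 5 on chromosome 6 were also higher in MEK1ca. On its left, the gene at 31382330 went from 37.8 and 35.2 CPM in pCIG to 488 and 322 CPM in MEK1ca. The gene at 31539142 went from 81.8 and 73.5 to 213 and 167 CPM. On its right, the genes at 31565165 and 31636707 had log2 fold changes of 0.44 and 0.93. All but the gene at 31565165 were called higher in the edgeR fit. Another neighborhood surrounded rank 11 on chromosome 4, where 4 consecutive plus-strand genes had higher levels in both MEK1ca libraries. Both this neighborhood and that of rank 5 were chosen after their values were seen. On chromosome 1, ranks 1 and 10 lay between plus-strand genes at 133109396 and 133227061, which were called higher. Their log2 fold changes were 2.98 and 4.78, from 0.0779 and 0.0506 CPM and from 0.130 and 0.0253 CPM in pCIG. No gene directly next to ranks 2, 4, 6, 7 or 9 was called higher. Of the 4 genes on chromosome 4, from left to right, the first was rank 50, described above. The second, at 12044627 to 12058058, was just above the window at 13.9 and 10.9 CPM in pCIG and reached 477 and 307 CPM in MEK1ca, with a log2 fold change of 5.01 and an SE of 0.35. The third was rank 11 itself. The next, at 12079187 to 12097974, went from 22.7 and 19.8 to 73.9 and 52.3 CPM, with a log2 fold change of 1.60 and an SE of 0.18. Both of the genes at 12044627 and 12079187 were called higher in the edgeR fit (adjusted p = 0.00964 and 0.00248). To the right of it, the gene at 12103012 to 12126436, was at 409 and 421 CPM in pCIG and at 445 and 438 CPM in MEK1ca and was not called. Replicate 1 was the higher MEK1ca library in each of the first 4 genes. Rank 11 itself no longer passed without pCIG replicate 1 (log2 fold change 3.82) or without pCIG replicate 2 (3.69).

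**Figure D5:**
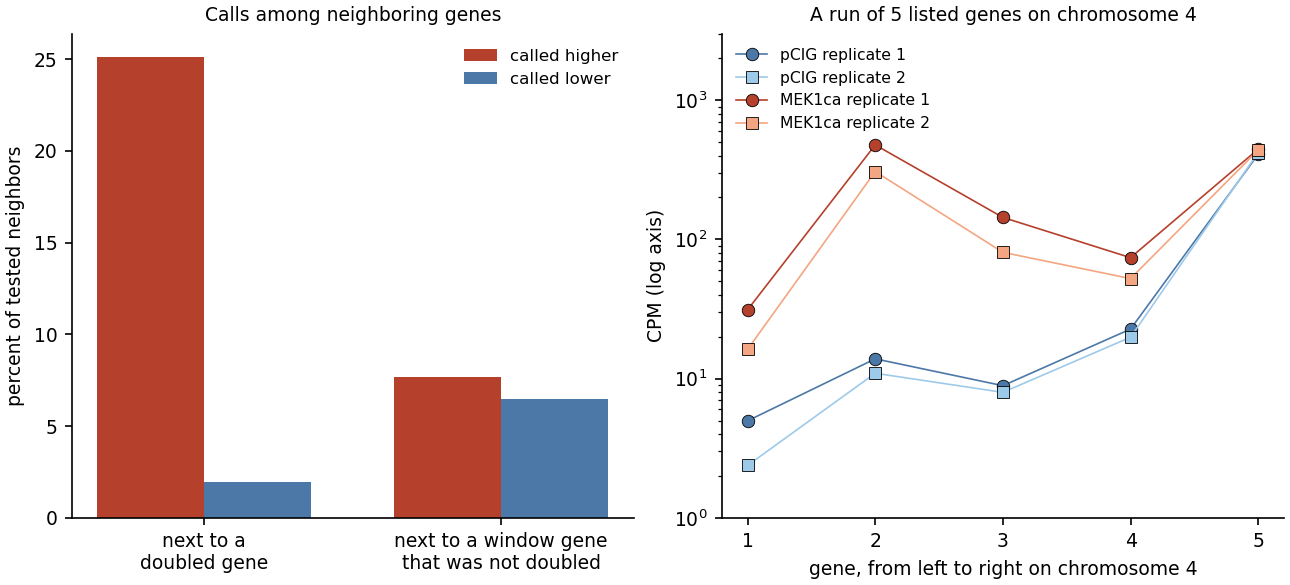
Left, percent of tested neighbors called higher (red) or lower (blue) in MEK1ca, next to doubled genes (25.1 and 1.97%) and next to window genes that were not doubled (7.70 and 6.46%). Right, level of 5 consecutive listed genes of chromosome 4 in each library (CPM, logarithmic axis), of which gene 1 is rank 50 and gene 3 is rank 11. The MEK1ca libraries lie above the pCIG libraries in genes 1 to 4 and meet them in gene 5.

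The thresholds of the rule cut through a continuum. The doubled gene nearest to the 2-fold limit, on chromosome 20 at 12972363 to 13104953, was at 7.40 and 9.13 CPM in pCIG and 22.6 and 18.3 CPM in MEK1ca, a ratio of 2.01. Just outside was a gene of chromosome 9 at 15226942 to 15240733, at 9.23 and 7.13 CPM in pCIG and 21.5 and 18.4 CPM in MEK1ca, with a ratio of 1.99. The next inside had ratios of 2.02 and 2.02, and the next outside 1.99 and 1.98. At the lower edge of the window the 3 doubled genes nearest to it had 81 counts in pCIG replicate 2 (1.02 CPM). The nearest outside had 77 counts in pCIG replicate 1 or 79 in replicate 2, and ratios of 2.12 to 3.05. At the upper edge the last inside were at 9.28, 9.39 and 9.47 CPM in their lower pCIG library. Among the first outside was a gene of chromosome 9 at 13417660 to 13427011, at 10.6 and 10.04 CPM in pCIG and 329 and 380 CPM in MEK1ca, and a gene of chromosome 6 at 25517714 to 25527369, at 18.3 and 10.8 CPM in pCIG and 358 and 356 CPM in MEK1ca. The other one, on chromosome 22 at 2478970 to 2479900, was at 10.1 and 12.7 CPM in pCIG and 36.7 and 46.0 CPM in MEK1ca. The ratios of these 3 genes were 31.1, 19.5 and 2.89, against 2.15 to 2.22 for the 3 just inside. The longest doubled gene spanned 343 kb, and the shortest of the 4 set aside for their span covered 403 kb and had a ratio of 6.04.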

How the data were processed

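RNA-seq counts of 4 libraries were used. The authors deposited whole-number counts per gene with exon coordinates and, as a length outside the usual units, the summed exon length. Subread, featureCounts, DESeq and the build galGal4 are listed, without versions, in the submitters' processing notes; whether counting used strand was not given in the sources used here. A deposited table of the authors' own comparison (fold changes, errors and p-values) was not used. CPM was computed from column totals. The table had 0 count columns of no sample.

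The doubled genes and the lists were chosen with earlier results of these data known. Genes passing filterByExpr were fitted with edgeR 4.0.16 (R 4.3.3; TMM factors of 0.983 to 1.02, robust quasi-likelihood, two-sided, Benjamini-Hochberg, adjusted p under 0.05); SEs were derived from the F statistic. P-values set the group difference against the spread between these libraries, each made from a pool of embryos. For each gene the fit draws that spread toward the trend over all genes. The fits were also run on simulated counts in which every gene was given the same dispersion. The genes measured here differ in spread, so that run does not show how accurate the fits are for them. Genes named were the 20 largest ratios, the 5 highest in MEK1ca and per kb, neighboring members and those next to a threshold; exceptions are stated. Neighbors were consecutive listed genes by start. Exons were merged where they overlapped. Alternatives were DESeq2 1.42.0, RLE scaling, no filter, a replicate block, other thresholds and leaving out each library. The planned lists and markers were not run, as no identifier had a name.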

Additional observations from a re-analysis of the deposited data

How the results depend on the processing

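The rule chose 134 genes with TMM-scaled CPM, 136 with RLE scaling and 134 with the window on the mean pCIG value, of which 126, 126 and 124 were shared with the 126. At a limit of 3 times it chose 54 and at 1.5 times 210, both by construction. Leaving out a library gave 156 to 187 genes, with 122 to 126 shared. The number of all genes called higher was 1065 and lay between 438 and 1154 when a library was left out: 507 without pCIG replicate 1, 438 without pCIG replicate 2. In these fits the single remaining library is assumed to have the spread of the other group. Doubled genes called were then 98 to 126, and their median log2 fold change 1.73 to 1.91. With the replicate block 1582 genes were called higher, 126 doubled genes among them, and the median was 1.83. The pairing by number is not stated to mark a shared batch, and differences between replicates correlated at 0.151 between the groups. DESeq2 called 1321 of all genes higher, 126 doubled genes among them. With RLE scaling these numbers were 1074 and 125, and with no filter 1136 and 123. Since the same counts selected the doubled genes, nothing is read from how many of them were called. Over 34 named genes and 6 alternatives, 0 of 204 log2 fold changes changed sign. The rule fixed this in advance, since it sets both MEK1ca values to at least 2 times both pCIG values. Ranks 11, 100 and 105 did not pass in every fit that left out a pCIG library. Without pCIG replicates 1 and 2, rank 11 had log2 fold changes of 3.82 and 3.69, against 3.76 with all libraries. Rank 100 had 1.41 without pCIG replicate 1, against 1.60. Rank 105 had 1.31 without pCIG replicate 2, against 1.65. Alternatives added after the data were examined were halved counts of MEK1ca replicate 2 and the 113 genes without exon overlap. The neighbor and length values under each setting were also added then. With halved counts 1069 of all genes were called higher, 125 doubled genes among them. Median exonic length ranged from 2786 to 3336 bases. The effect of depth was not tested.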
